A study of Drosophila melanogaster with 27 samples.

Results

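Cellularization is the process by which the syncytial Drosophila embryo becomes a sheet of cells, and 7 of the 17714 genes in the count and TPM matrices are described here because each acts in it: nullo, bnk (bottleneck), Sry-alpha, slam (slow as molasses), halo, dia (diaphanous) and nuf (nuclear fallout). They were chosen by name from their known function and matched to their FlyBase identifiers. TPM values scale the read counts of a gene by its length and by the library total. All 7 were present in the matrices and all 7 passed the filter on low counts in both experiments.

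In the syncytial embryo nuclei divide without cytokinesis, first on mRNA and protein loaded by the mother. During nuclear cycle 14 plasma membrane furrows grow in between the nuclei, led by a network of actin and myosin, while membrane is supplied from the Golgi and recycling endosomes. A small group of genes transcribed briefly from the zygotic genome in this interval drives the process together with maternal products. Of the members, nullo, bnk, Sry-alpha, slam and halo are zygotic genes of this kind, whereas dia and nuf are supplied by the mother. RNA of slam was also present in the w embryos hand-picked before cellularization (described below), at a mean of 34.5 TPM. The means of nullo, bnk, Sry-alpha and halo there were 3.64 to 8.39 TPM. Whether this slam RNA is maternal was not tested.

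RNA-seq was done on whole embryos of Drosophila melanogaster. In the unsorted experiment, nos- embryos were set against w embryos (w1118, the wild-type strain), with 3 libraries for each of the 4 groups. Collections were aged 2-3h, when cellularization occurs, and 0-1h, nominally before the main onset of zygotic transcription. The nos- embryos came from mothers trans-heterozygous for the allele nosBN and Df(3R)Exel6183, a deletion that also removes neighbours of nos (nanos, a maternal repressor of translation that recruits deadenylases to mRNA); the genotype named is therefore the mother's. The 2 strains also differ in genetic background, which cannot be told apart from the nos genotype. In the sorted experiment, 3 libraries each came from embryos hand-picked at about nuclear cycle 9 to 10 by their DAPI-stained nuclei, whose mothers expressed Upf1-Nos (a fusion of Nos with Upf1, a factor of nonsense-mediated RNA decay), Upf1-NosL7 (the same fusion with a mutant Nos), Nos or Upf1 under a maternal alpha-tubulin GAL4 driver, and from w embryos. Nuclei of Upf1-Nos embryos are abnormal, so those embryos were matched by approximate age only.

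The libraries held 15253031 to 21661085 counts in the unsorted experiment and 14022879 to 22002028 in the sorted one. RNA of nos followed the labels, with 1.23, 0.87 and 1.28 TPM in nos- embryos against 42, 31 and 31.1 TPM in w embryos at 2-3h, and 0.12, 0.3 and 0.43 TPM in nos- embryos against 396, 409 and 381 TPM in w embryos at 0-1h. No 2 libraries of a group were alike within counting noise. The sorted w library of replicate 3 lay furthest from its group. Its chi-square per degree of freedom was 126 against replicate 1 and 128 against replicate 2, beside a median of 18.1 over all 27 pairs. The paper calls the replicates of the sorted experiment biological. Nothing in the labels says that libraries of a group came from separate cages or days. P-values therefore measure the spread between these libraries, which in the unsorted experiment may be technical. The collections were not staged under the microscope: a list of 10 markers of older embryos summed to 83.5 to 187 TPM in nos- and 201 to 259 TPM in w libraries at 2-3h, and to 33.6 to 212 TPM in nos- and 65.8 to 228 TPM in w libraries at 0-1h. The ranges of this list did not overlap at 2-3h and did at 0-1h. Of the 7 markers tested 1, Mef2, was called higher in nos- embryos at 2-3h and 2, Mef2 and elav, at 0-1h, and none lower. Mef2 was itself called lower with age in w embryos (log2 fold change −1.02). The list medians were −0.91 at 2-3h and −0.74 at 0-1h. Mhc, Mlc2, Act57B, nSyb and Tm2 had negative values at both ages, without a call. The neural gene elav was higher in nos- embryos at 0-1h (3.05, 1.71 and 3.98 TPM in nos- against 0.88, 0.67 and 1.11 TPM in w embryos; log2 fold change 2.12, standard error 0.29, adjusted p = 0.000445). The muscle gene Mhc had 0.12, 0.04 and 10.9 TPM in nos- and 9.67, 1.72 and 9.85 TPM in w libraries at 0-1h, where 2 nos- libraries lay below all others. The part of these markers in the results that follow was not tested. Follicle cell markers (14 genes) were too low to test at either age.

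Positions are those of the BDGP6.54 annotation. The gene nullo lies on chromosome X from 7049476 to 7050321 on the plus strand, bnk on 3R from 31193362 to 31194389 on the plus strand, and halo on 2L from 1517533 to 1518148 on the minus strand, each as a single exon. Sry-alpha lies on 3R from 30039719 to 30043071, slam on 2L from 6372388 to 6377284, dia on 2L from 20758144 to 20768053 and nuf on 3L from 14190870 to 14233250, all on the plus strand. Genes without introns are common among those transcribed within the brief nuclear cycles. Sry-alpha overlaps the neighbouring zinc-finger gene Sry-beta on the same strand over 3300 exon bases, and 1 annotated transcript of each has the same span and the same TPM in every library, so reads there could not be assigned to either gene. The other members shared no exon bases with another gene. The limits of the deletion on 3R were not examined here.

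At 2-3h the zygotic members nullo, bnk, Sry-alpha, slam and halo were far higher than at 0-1h in both genotypes, whereas dia and nuf did not change beyond 2-fold. In nos- embryos 5 of the 7 members were called higher at 2-3h than at 0-1h (adjusted p below 0.05 in edgeR's quasi-likelihood test and a change above 2-fold) and none lower, where 12.1% of the 8445 genes tested were called higher and 20.3% lower. In w embryos the same 5 were called higher and none lower, against a background of 17.1% higher and 25.4% lower. With upper quartile scaling the calls over all genes were 1247 higher and 1351 lower in nos- embryos, in place of 1026 and 1711, and 1967 and 1940 in w embryos, in place of 1444 and 2144. The median log2 fold change of the 7 was 2.60 in nos- and 3.39 in w embryos, and that of all genes was 0.09 in nos- and 0.25 in w embryos.

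At 2-3h bnk, Sry-alpha, slam and halo were called lower in nos- than in w embryos (adjusted p below 0.05 and a log2 fold change beyond 0.5) and none of the 7 was called higher, against 8.8% of all genes called lower and 18.6% higher. At 0-1h 1 member, bnk, was called higher in nos- embryos and none lower, and when only the libraries of that age were fitted the count was 0; 10.9% of all genes were called higher and 6.74% lower (924 and 569 genes; 712 and 672 with libraries scaled by their totals), so the members' share at this age is near the background. The median of the 7 was −0.63 at 2-3h and 0.66 at 0-1h, beside medians of all genes of 0.01 at 2-3h and 0.09 at 0-1h. In whole embryos, fewer nuclei that transcribe these genes, younger embryos in a collection and less RNA per nucleus cannot be told apart. In nos- 2-3h embryos halo was the most abundant member and dia the least, and both held these places in w 2-3h embryos.

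**Figure D1:**
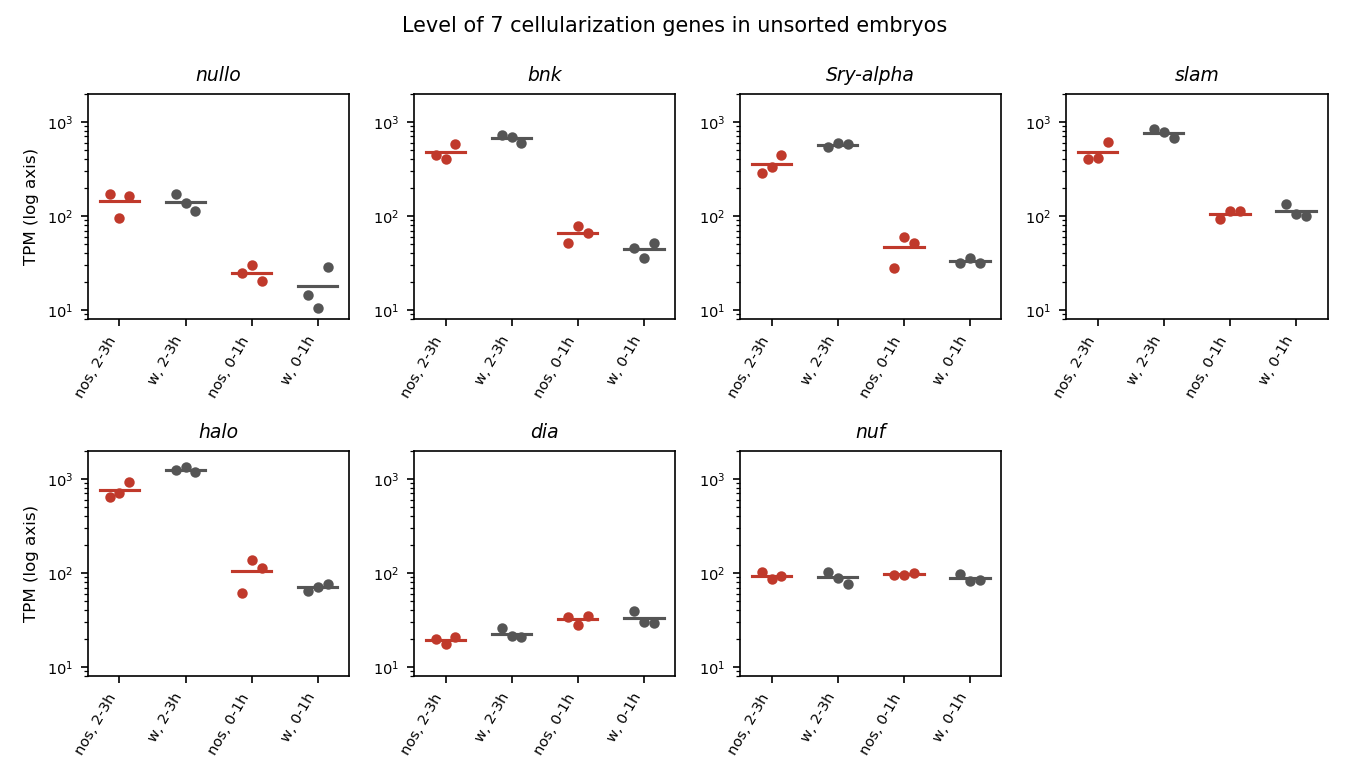
Level of each member in the unsorted libraries, in TPM on a log axis, with 1 point for each library and a bar at the mean of each group (n = 3). At 2-3h all nos- points lie below all w points for bnk, Sry-alpha, slam and halo, and the points of nullo, dia and nuf overlap.

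Nullo, bottleneck and Sry-alpha act on the actin network of the furrow front. The protein Nullo keeps actin and membrane at the furrow stable, and without it furrows are lost and nuclei share a cell. At 2-3h nullo had 172, 95.6 and 162 TPM in nos- embryos against 172, 137 and 114 TPM in w embryos. At 0-1h it had 24.7, 30.2 and 20.3 TPM in nos- embryos against 14.6, 10.6 and 28.7 TPM in w embryos. The genotypes overlapped at both ages, and at 2-3h nullo was the only zygotic member whose libraries did so (143 ± 41.4 TPM in nos- and 141 ± 29.3 TPM in w embryos, SD, n = 3 each). It was not called at 2-3h (log2 fold change −0.12, standard error 0.29, adjusted p = 0.752) or 0-1h (log2 fold change 0.67, standard error 0.33, adjusted p = 0.172). Its value at 0-1h rested on the w library of replicate 3, the highest of the w libraries: without it nullo was called higher in nos- embryos, with a log2 fold change of 1.16 and adjusted p = 0.0202. With age it rose in both genotypes, by 2.60 on the log2 scale in nos- embryos (adjusted p = 2.6e-05) and 3.39 in w embryos (adjusted p = 1.84e-06).

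Bottleneck is a small basic protein that holds the actomyosin network in a hexagonal array and restrains its constriction until furrows have passed the nuclei. At 2-3h bnk had 447, 407 and 578 TPM in nos- embryos against 718, 686 and 601 TPM in w embryos. Every nos- library was below every w library, and bnk fell in nos- embryos (log2 fold change −0.63, standard error 0.17, adjusted p = 0.0103). Its mean there was 71.4% of that in w embryos. At 0-1h bnk had 52.1, 79.1 and 66.6 TPM in nos- embryos against 45.3, 35.8 and 52 TPM in w embryos. The lowest nos- value was only just above the highest w value, and the difference passed the test (log2 fold change 0.75, standard error 0.18, adjusted p = 0.01). Fitted on the 6 libraries of this age alone it missed the threshold, with adjusted p = 0.0522. The rise with age was 2.95 (log2, standard error 0.18, adjusted p = 1.7e-07) in nos- embryos, and in w embryos 4.32 (standard error 0.19, adjusted p = 6.01e-09).

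The product of Sry-alpha, a protein related to vinculin and alpha-catenin in structure, is needed to keep F-actin continuous at the furrow front. At 2-3h Sry-alpha had 287, 328 and 450.0 TPM in nos- embryos against 545, 598 and 578 TPM in w embryos. The w libraries lay close together and above all nos- libraries, of which replicate 1 was the lowest and replicate 3 the highest. Sry-alpha fell in nos- embryos (log2 fold change −0.85, standard error 0.23, adjusted p = 0.0117), to a mean of 355 ± 84.7 TPM against 574 ± 26.9 TPM in w embryos (SD, n = 3 each). At 0-1h it had 28.3, 60.3 and 52 TPM in nos- embryos against 31.8, 35.5 and 31.7 TPM in w embryos. There 2 nos- libraries were above every w library and 1 was below them all, and the difference missed the threshold (log2 fold change 0.66, standard error 0.24, adjusted p = 0.0614). Between the ages Sry-alpha rose by 2.95 in nos- embryos (log2; adjusted p = 1.15e-06) and 4.46 in w embryos (adjusted p = 3.54e-08). Its overlapping neighbour Sry-beta, whose level was 66, 60.4 and 62.4 TPM in nos- and 72, 59.97 and 62.4 TPM in w embryos at 2-3h, differed by −0.34 (log2, adjusted p = 0.0133), below the fold threshold. At isoform level the transcript of Sry-alpha that does not have the shared span, FBtr0085557, was just past the threshold (log2 fold change −0.84, standard error 0.27, adjusted p = 0.0458). This call was lost with DESeq2 size factors (adjusted p = 0.0559), with edgeR's default filter (adjusted p = 0.0556) and in 5 of the 6 fits without a 2-3h library, all but that without nos- replicate 3 (adjusted p from 0.0594 to 0.169).

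Slam sits at the invaginating furrow membrane and recruits RhoGEF2 and other polarity and actin regulators to it; its RNA and protein are needed for the furrow to grow. At 2-3h slam had 408, 414 and 609 TPM in nos- embryos against 830.3, 789.5 and 666 TPM in w embryos. All nos- libraries were lower, and the highest of them, replicate 3, came closest to the lowest w library. It differed by −0.82 on the log2 scale (standard error 0.16, adjusted p = 0.00166), the lowest adjusted p of the 7 members in this comparison. At 0-1h slam had 92.2, 113 and 114 TPM in nos- embryos against 133, 104 and 99.2 TPM in w embryos, the highest mean of the 7 members in each genotype. The groups overlapped and no difference passed the test (log2 fold change 0.08, standard error 0.16, adjusted p = 0.779). It rose with age by 2.25 in nos- embryos (log2; adjusted p = 4.07e-07) and 3.15 in w embryos (adjusted p = 1.68e-08).

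Halo does not act on the furrow itself: it sets the direction of lipid droplet transport along microtubules, which clears the periphery of the embryo as cells form. At 2-3h halo had 644, 711 and 934 TPM in nos- embryos against 1252, 1336 and 1170.3 TPM in w embryos. It was the most abundant member in both genotypes, and every w library was above every nos- library. The difference passed the test (log2 fold change −0.86, standard error 0.23, adjusted p = 0.0124), and the nos- mean was 60.9% of the w mean. At 0-1h halo had 61, 138 and 114 TPM in nos- embryos against 64.4, 71.7 and 75.6 TPM in w embryos. Replicate 1 of nos- was below the 3 w libraries, and replicates 2 and 3 were well above them (log2 fold change 0.74, standard error 0.25, adjusted p = 0.0506). With age halo rose by 2.96 in nos- embryos (log2, standard error 0.26, adjusted p = 1.47e-06) and by 4.55 in w embryos (standard error 0.27, adjusted p = 3.99e-08). The rises of Sry-alpha (2.95 in nos- and 4.46 in w embryos) and bnk (2.95 in nos- and 4.32 in w embryos) were close to these.

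The formin Dia nucleates and elongates unbranched actin filaments at the furrow, and is a maternal product. At 2-3h dia had 19.9, 17.4 and 21.1 TPM in nos- embryos against 26.1, 21.2 and 20.8 TPM in w embryos. At 0-1h it had 33.9, 28.1 and 34.9 TPM in nos- embryos against 39.3, 29.9 and 29.5 TPM in w embryos. The genotypes overlapped at both ages. At 2-3h the adjusted p was below 0.05 while the change was under the fold threshold (log2 fold change −0.38, standard error 0.11, adjusted p = 0.0155), and at 0-1h neither was passed (log2 fold change 0.11, standard error 0.11, adjusted p = 0.494). At 2-3h against 0-1h dia differed by −0.59 in nos- embryos (adjusted p = 0.000512), less than 2-fold, and by −0.10 in w embryos (adjusted p = 0.414). The sign of the w value changed with the scaling, from −0.53 to 0.09. In TPM, which is scaled differently from the counts of the test, the w mean of dia at 2-3h was 69.0% of that at 0-1h, without overlap.

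Nuf binds the small GTPase Rab11 and directs recycling endosome membrane and actin to the furrows, and it too is maternal. At 2-3h nuf had 102, 86.7 and 93.3 TPM in nos- embryos against 104, 88.8 and 77 TPM in w embryos. At 0-1h it had 95.3, 94.1 and 101 TPM in nos- embryos against 96.9, 82 and 83.8 TPM in w embryos. In TPM this was the steadiest of the 7: its group means spanned only 87.5 to 96.7 TPM. It was not called in either comparison (log2 fold change −0.12, standard error 0.08, adjusted p = 0.264 at 2-3h; log2 fold change 0.25, standard error 0.08, adjusted p = 0.0386 at 0-1h, under the fold threshold). With age it differed by 0.03 on the log2 scale in nos- embryos (adjusted p = 0.737) and by 0.40 in w embryos (adjusted p = 0.000701), below 2-fold. The ratio of the w means in TPM was 1.03, as TPM and the counts of the test are scaled differently.

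Levels of the members were ordered alike in both genotypes at 2-3h, with halo first, then bnk, slam and Sry-alpha, then nullo and nuf, and dia last. In nos- embryos bnk, slam and Sry-alpha could not be separated beyond the spread of their libraries, nor could nullo and nuf. In w embryos slam and bnk overlapped, and bnk lay above Sry-alpha and nullo above nuf in all libraries. At 0-1h slam was first in both, nullo was last, and dia (32.3 ± 3.7 TPM in nos-, 32.9 ± 5.52 TPM in w) overlapped with Sry-alpha (46.9 ± 16.6 TPM in nos-, 33 ± 2.19 TPM in w; SD, n = 3 each).

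**Figure D2:**
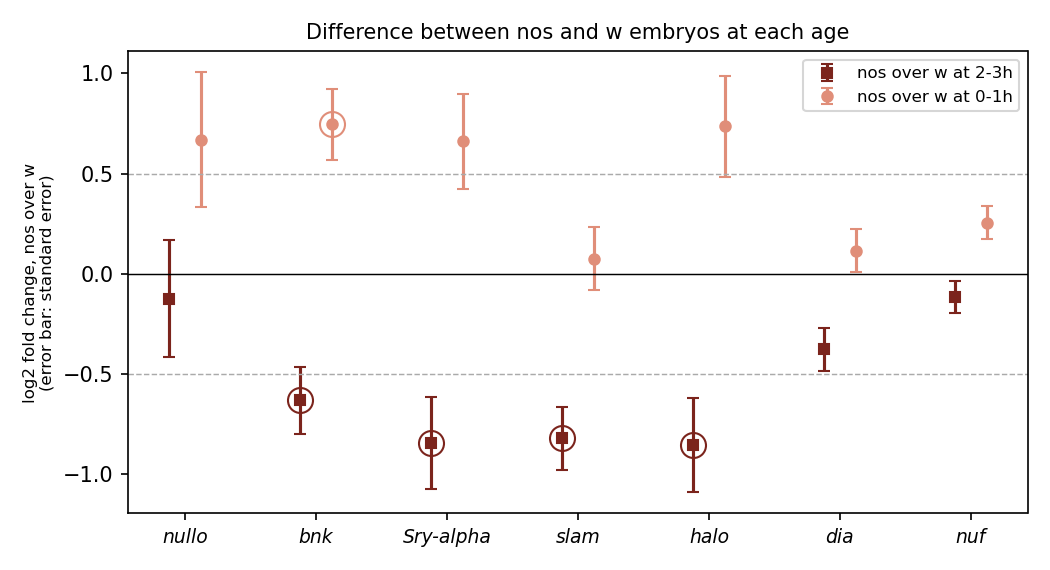
Log2 fold change of nos- over w for each member at 2-3h and 0-1h, with bars of 1 standard error from edgeR. Circles mark called values and dashed lines the fold threshold of 0.5; bnk, Sry-alpha, slam and halo lie below −0.5 at 2-3h, and at 0-1h only bnk is called.

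The difference between nos- and w embryos itself changed between the ages. The difference of the log2 fold changes (2-3h minus 0-1h) was called for 4 of the 7 members, all negative, where 10.1% of all genes were called negative and 12.4% positive (853 and 1050 genes; 386 and 1680 with libraries scaled by their totals). It was −1.59 ± 0.34, adjusted p = 0.00649 for halo, −1.51 ± 0.33, adjusted p = 0.00681 for Sry-alpha and −1.38 ± 0.24, adjusted p = 0.00309 for bnk (log2 ± standard error). On average these 3 genes were lower in nos- than in w embryos at 2-3h and higher at 0-1h, and their rise with age was the smaller in nos- embryos. For slam it was −0.90 ± 0.22, adjusted p = 0.0108, with nearly all of the difference at 2-3h. The maternal members had smaller values, −0.49 ± 0.15, adjusted p = 0.0292 for dia and −0.37 ± 0.11, adjusted p = 0.0287 for nuf, which passed the test but not the fold threshold, and nullo had −0.79 ± 0.44, adjusted p = 0.192. The slam call was lost without the nos- 2-3h library of replicate 1 (adjusted p = 0.0539) or the w 2-3h library of replicate 2 (adjusted p = 0.0523), and in limma on log2(TPM + 1) (−0.62, adjusted p = 0.0685) and log2(TPM + 0.1) (adjusted p = 0.0690). The median of all genes was −0.10 here and moved to 0.14 when libraries were scaled by their totals alone.

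At 0-1h, same-numbered nos- and w libraries varied together, though nos- replicate 1 went best with w replicate 2. With the replicate number as a block, Sry-alpha (log2 fold change 0.62, adjusted p = 0.0255) and halo (0.70, adjusted p = 0.0233) were called higher in nos- embryos as well, 3 members in place of 1. Leaving out the nos- 0-1h library of replicate 1, which was the lowest of its group for bnk, Sry-alpha, slam and halo, likewise gave 3 calls, with 0.91 for Sry-alpha (adjusted p = 0.00587) and 1.01 for halo (adjusted p = 0.00256). How many of all genes were called with the block or without this library is not given here, so these counts of members have no background. At 2-3h the block changed no call. At that age the count of 4 members called lower was 1, slam alone, without the nos- 2-3h library of replicate 1, when bnk, Sry-alpha and halo had log2 fold changes of −0.52, −0.65 and −0.69 and adjusted p from 0.0699 to 0.0737. It was 2, Sry-alpha and slam, without the w 2-3h library of replicate 2.

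Other early zygotic genes were called in the same directions. Of 17 such genes, chosen for their early transcription (sisA, tll, Kr, gt, kni, sna, twi, zen and others), 0 were called higher and 11 lower in nos- embryos at 2-3h, with a median of −0.71, and 11 higher and 0 lower at 0-1h, with a median of 0.84. The 0-1h count was 6 under DESeq2 size factors, library totals and upper quartile scaling, 15 without the nos- library of replicate 1 and 7 without that of replicate 2. Their summed level was 2535 to 3361 TPM in nos- and 4112 to 4395 TPM in w embryos at 2-3h, and 430.5 to 676 TPM in nos- and 430 to 449 TPM in w embryos at 0-1h. Genes that pattern the blastoderm (15 genes, among them eve, ftz, wg and srp) gave 0 higher and 3 lower at 2-3h (median −0.31), and 13 higher and 0 lower at 0-1h (median 1.23). At 0-1h these patterning genes summed to 42.8 to 103 TPM in nos- and 34.4 to 40.2 TPM in w libraries, without overlap. In w libraries of the sorted experiment they summed to 0.84 to 2.47 TPM. The part of older embryos in the 0-1h collections was not tested.

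The summed TPM of nullo, bnk, Sry-alpha, slam and halo was also set against that of these 17 genes within each library. It came to 70.8% to 81.3% of it in nos- and 72.6% to 85.5% in w libraries at 2-3h, and to 60.01% to 62.1% in nos- and 59.99% to 64.8% in w libraries at 0-1h. The genotypes overlapped at both ages. Within the 5, nullo made up 8.77%, 4.89% and 5.92% in nos- 2-3h libraries against 4.89%, 3.87% and 3.64% in w 2-3h libraries, so that 2 nos- libraries lay above all w libraries and the third lay level with the highest of them.

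Maternal transcripts were called in the other direction at 2-3h. Of 10 maternal markers, 5 were called higher in nos- embryos (osk, exu, swa, gcl and pgc, with log2 fold changes of 0.68 to 2.48) and 1 lower, nos itself; at 0-1h 0 were higher and 1 lower, again nos. Their summed level was 1934 to 2343 TPM in nos- and 1087 to 1916 TPM in w libraries at 2-3h. The part that either list has in the members' difference was not tested.

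Genes with other roles in cellularization had calls in both directions at 2-3h. Of 21 genes of the furrow actomyosin and septins, 20 were tested and 1 was called higher and 1 lower in nos- embryos at 2-3h, with a median of −0.13. They were both septins, which form filaments at the furrow front: Septin4 at 1.20 ± 0.15, adjusted p = 0.000143 and Septin5 at −0.93 ± 0.20, adjusted p = 0.00388 (log2 ± standard error). Of 12 junction and polarity genes 1 was higher and 2 lower (median −0.33): kst, the beta-heavy spectrin, at 0.71 ± 0.19, adjusted p = 0.0108; Nrt, a zygotic membrane adhesion protein, at −0.76 ± 0.22, adjusted p = 0.0164; and sdt, a scaffold of the Crumbs complex, at −0.52 ± 0.15, adjusted p = 0.0177.

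Membrane traffic genes numbered 17, and 5 were higher and 1 lower at 2-3h (median 0.32). The largest changes were those of the Rab effector Rbsn-5 (1.17 ± 0.15, adjusted p = 0.000143), the Golgi golgin lva (0.90 ± 0.15, adjusted p = 0.000911) and Amph, a membrane-curving BAR protein (0.78 ± 0.11, adjusted p = 0.000271). Of 9 genes of lipid droplet transport, the process halo serves, 4 were higher and 2 lower (median 0.49). Jabba, which anchors histones on droplets, stood at 2.18 ± 0.28, adjusted p = 0.000153, the perilipin Lsd-2 at 1.47 ± 0.31, adjusted p = 0.00296 and the other perilipin Lsd-1 at −1.95 ± 0.28, adjusted p = 0.000298. At 0-1h these 4 lists gave 0 higher and 0 lower, 1 and 0, 0 and 0, and 0 and 1, the last being Lsd-1 (−1.78, adjusted p = 0.0012).

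**Figure D3:**
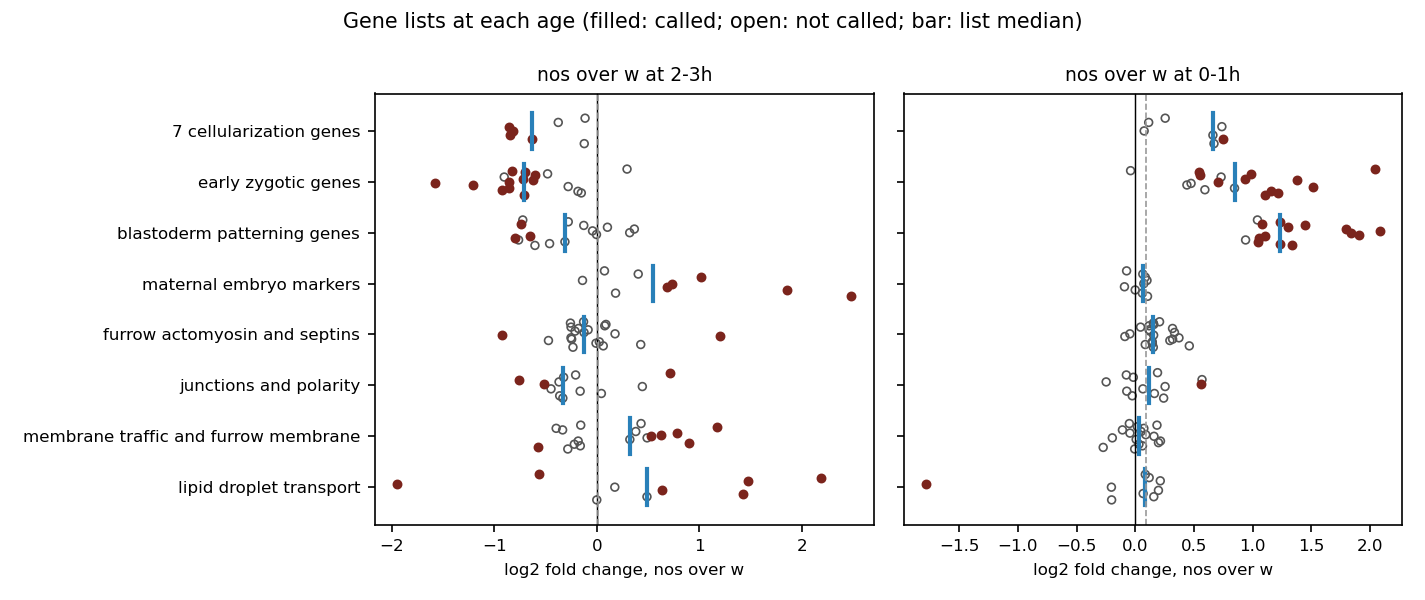
Log2 fold change of nos- over w at 2-3h and 0-1h for the 7 members, for the lists of other cellularization genes and for marker lists, with 1 point for each tested gene and a bar at each median (the point of nos itself is left out). Dashed lines mark the median of all genes; the members and the early zygotic genes lie mostly below 0 at 2-3h and mostly above 0 at 0-1h, and the membrane traffic and lipid droplet lists have medians above 0 at 2-3h.

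In w embryos, aged 2-3h against 0-1h, the furrow actomyosin list had 7 genes higher and 3 lower (median 0.81) and the junction list 4 higher and 1 lower (median 0.64). The membrane traffic list had 1 higher and 9 lower (median −1.11) and the lipid droplet list 2 higher and 6 lower (median −1.02). The 17 early zygotic genes were all called higher. The values of dia (−0.10) and nuf (0.40) lay nearer to 0 than the medians of these lists.

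The single isoforms of nullo, bnk and halo carried their genes' changes, while slam, dia and nuf have several. Of the members' 24 annotated isoforms 19 were tested, and 8 were called lower and 1 higher in nos- embryos at 2-3h, against 5.8% of 15528 isoforms lower and 11.6% higher. The lower count was 5, 3 and 3 without w 2-3h replicate 1, 2 or 3, and 3, 4 and 6 without nos- 2-3h replicate 1, 2 or 3; the higher count was 2 without w replicate 1. With age in w embryos 7 were called higher and 1 lower, against 15.3% higher and 22% lower.

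Nearly all slam RNA at 2-3h was FBtr0344864, the shorter of 2 annotated forms (3704 nt and 2 exons, beside 4117 nt and 3 exons for FBtr0290281; the coding part is the same). It made up 97.0% of the slam mean in nos- and 97.7% in w embryos at 2-3h, and 88.4% in nos- and 80.9% in w embryos at 0-1h. In w embryos FBtr0344864 rose with age (log2 fold change 3.41, standard error 0.19, adjusted p = 2.57e-07) and FBtr0290281 did not pass the test (log2 fold change 0.05, standard error 0.20, adjusted p = 0.864). At 2-3h FBtr0344864 had 391, 404 and 594 TPM in nos- libraries against 808, 773 and 653 TPM in w libraries, without overlap, and was called lower in nos- embryos (log2 fold change −0.83, standard error 0.17, adjusted p = 0.00683).

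The dia forms FBtr0081411 and FBtr0081410, the most abundant at 0-1h, have the same coding part and the same 946-nt 3′ UTR and differ in their 5′ end. At 2-3h FBtr0081411 (4465 nt) had 7.36, 7.45 and 8.23 TPM in nos- embryos against 13.2, 9.14 and 10.7 TPM in w embryos. Every nos- library was below every w library (log2 fold change −0.66, standard error 0.14, adjusted p = 0.00781). At 0-1h it had 15, 11.4 and 16.5 TPM in nos- embryos against 8.92, 7.41 and 8.46 TPM in w embryos, all nos- libraries there being higher (log2 fold change 0.93, standard error 0.14, adjusted p = 0.0025). The change of direction passed the test of the difference (−1.59, adjusted p = 0.00244), although dia as a gene was not called at either age. The other form, FBtr0081410 (4743 nt), had 6.98, 4.17 and 8.07 TPM in nos- and 6.08, 3.08 and 2.05 TPM in w embryos at 2-3h, and 17.7, 13.6 and 18.4 TPM in nos- and 30.1, 19.6 and 18.4 TPM in w embryos at 0-1h. It fell with age in w embryos (log2 fold change −2.26, standard error 0.36, adjusted p = 0.000296). A further form with a 1463-nt 3′ UTR, FBtr0335145, averaged 5.05 TPM in nos- and 7.81 TPM in w embryos at 2-3h, when it made up 25.9% of the dia mean in nos- and 34.4% in w embryos, beside 0.963 TPM in nos- and 1.91 TPM in w embryos at 0-1h, and missed the test in w embryos (log2 fold change 2.40, standard error 1.20, adjusted p = 0.112).

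Most nuf RNA was FBtr0100040, at 60.4% of the gene in nos- and 54.9% in w embryos at 2-3h. The short form FBtr0100042 (2373 nt) had 25.2, 24.2 and 25.5 TPM in nos- and 19.98, 20.9 and 22.6 TPM in w embryos at 2-3h, and rose with age in w embryos (log2 fold change 2.45, standard error 0.17, adjusted p = 8.2e-07). At 0-1h it had 12.9, 16.6 and 13.1 TPM in nos- embryos against 5.8, 4.97 and 4.24 TPM in w embryos, with no overlap (log2 fold change 1.64, standard error 0.16, adjusted p = 0.000254). At gene level nuf was not called in any of these comparisons. Some low nuf forms were at or near 0 in 1 genotype: FBtr0306624 had 2.02, 3.19 and 0.6 TPM in nos- and 0, 0.03 and 0 TPM in w embryos at 2-3h, and FBtr0100043 had 0, 0 and 0.04 TPM in nos- and 3.04, 1.35 and 1.41 TPM in w embryos. Values for isoforms are estimates that split shared reads, and sequence differences between the strains cannot be told apart from use of another form.

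**Figure D4:**
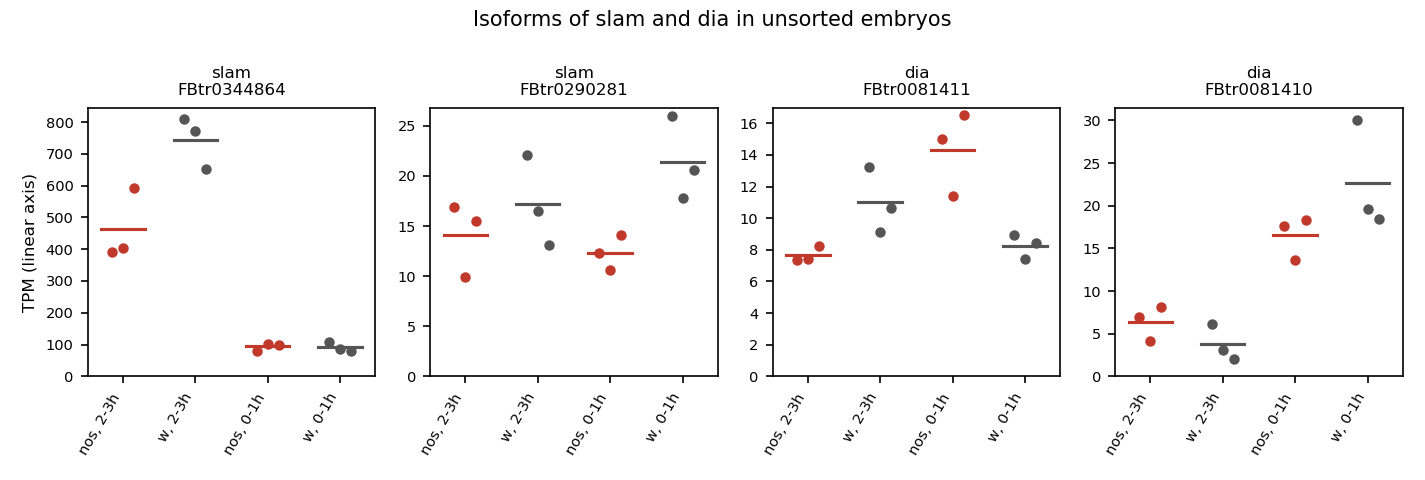
TPM of both isoforms of slam and of the dia isoforms FBtr0081411 and FBtr0081410 in the unsorted libraries on linear axes, with 1 point for each library and a bar at the mean of each group (n = 3). For dia, FBtr0081411 is lower in nos- than in w at 2-3h and higher at 0-1h, and for slam FBtr0344864 is far higher at 2-3h than at 0-1h while FBtr0290281 is not.

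At cycle 9 to 10, in the sorted embryos, halo and Sry-alpha were higher in embryos whose mothers carried the Nos transgene. RNA of nos itself was not called different in these Nos embryos (log2 fold change 0.08 against w, standard error 0.10, adjusted p = 0.62). The 7 members gave 2 higher and 0 lower calls in Nos embryos (adjusted p below 0.05 and a change above 2-fold), where 2.73% of the 6857 genes tested were called higher and 2.87% lower. None was called in Upf1-Nos embryos (background 2.19% higher and 39.7% lower), in Upf1-NosL7 embryos (2.26% and 2.93%) or in Upf1 embryos (1.72% and 2.3%). At an unadjusted p under 0.05 there were 1 higher and 1 lower in Upf1-Nos embryos. In Upf1-NosL7 embryos there were 0 higher and 2 lower, and in Upf1 embryos 0 higher and 1 lower. The share of all genes at this unadjusted cutoff is not given here, so these counts are not a result about the members. DESeq2 called 1 lower, nullo, in Upf1 embryos and none in the other 2.

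The level of halo was 25.3, 24.1 and 57.4 TPM in Nos embryos against 11.4, 3.93 and 9.81 TPM in w embryos, from 185, 188 and 399 counts in Nos and 81, 26 and 77 counts in w libraries. All Nos libraries were above all w libraries (log2 fold change 2.03, standard error 0.39, adjusted p = 0.00227). For Sry-alpha the values were 8.51, 9.37 and 15.4 TPM in Nos embryos and 3.87, 1.87 and 5.18 TPM in w embryos, again without overlap (log2 fold change 1.38, standard error 0.23, adjusted p = 0.000567). The transcript FBtr0346862, which cannot be told apart from one of Sry-beta, made up 22.7% of the Sry-alpha mean in Nos and 42.8% in w embryos. The other transcript, FBtr0085557, had 5.98, 6.51 and 13.3 TPM in Nos and 2.22, 0.38 and 3.65 TPM in w embryos, without overlap. The level of bnk was 8.08, 10.6 and 18 TPM in Nos embryos and 10.3, 3.18 and 5.97 TPM in w embryos. The w library of replicate 1 lay among the Nos libraries and bnk missed the threshold (log2 fold change 0.85, standard error 0.35, adjusted p = 0.106); without that library it was called, at 1.43 with adjusted p = 0.00727. The remaining zygotic members did not pass: slam had 35.5, 40.5 and 43.2 TPM in Nos and 28, 26.1 and 49.2 TPM in w embryos (log2 fold change 0.18, standard error 0.24, adjusted p = 0.638), and nullo 4.92, 4.84 and 7.35 TPM in Nos and 8.54, 4.05 and 4.47 TPM in w embryos (log2 fold change −0.06, standard error 0.34, adjusted p = 0.915).

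Other early zygotic genes accompanied these 2. Of the 17 on the list 10 were tested, and 4 were called higher in Nos embryos: term (2.21), Z600 (2.16), Elba1 (1.93) and zen (1.21), with a median of 0.64 over the 10 beside 0.07 over all genes. Their summed level was 295 to 382 TPM in Nos and 151 to 230.5 TPM in w libraries, without overlap. The 5 zygotic members came to 27.9% to 37.0% of that sum in Nos and 26.0% to 32.4% in w libraries. Within these 5, slam made up 45.1%, 66.7% and 65.9% in w libraries and 43.1%, 45.3% and 30.5% in Nos libraries. The share of halo was 18.4%, 10.04% and 13.1% in w and 30.8%, 26.9% and 40.6% in Nos libraries, without overlap. In w libraries slam was the largest part, so the percentages of the 5 together do not describe each member. The part of the early zygotic list's level in the members' values was not tested.

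In Upf1-Nos embryos 39.7% of all genes were called lower and the median of all genes was −0.51, these libraries being scaled by 20 genes that the study lists rather than by TMM. The median of the 7 members was −0.47. Against this, nuf had 117, 81.8 and 92 TPM in Upf1-Nos and 52.9, 46.5 and 80.8 TPM in w embryos (log2 fold change 0.45, standard error 0.17, adjusted p = 0.0261), and Sry-alpha 7.72, 5.27 and 5.98 TPM in Upf1-Nos and 3.87, 1.87 and 5.18 TPM in w embryos (log2 fold change 0.48, standard error 0.23, adjusted p = 0.0742). Both were under the fold threshold. The TPM values are as deposited and do not carry the correction factors of the test (1.26, 1.47 and 1.33 for Upf1-Nos replicates 1, 2 and 3). Upf1-Nos and w levels in TPM are therefore not on the same scale. With TMM in all libraries both were called higher, nuf at 1.01 (adjusted p = 1.76e-05) and Sry-alpha at 1.04 (adjusted p = 0.000442).

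Upf1-NosL7 and Upf1 embryos gave no call. In Upf1 embryos nullo had 2.86, 3.5 and 2.01 TPM against 8.54, 4.05 and 4.47 TPM in w embryos, with no overlap, and missed the threshold (log2 fold change −1.04, standard error 0.36, adjusted p = 0.0822). Without the w library of replicate 3 it was called lower, at −1.34 with adjusted p = 0.0160. In Upf1-NosL7 embryos dia had 5.3, 5.48 and 6.09 TPM against 7.69, 8.24 and 15.1 TPM in w embryos (log2 fold change −0.65, standard error 0.21, adjusted p = 0.054) and slam 20.5, 18.5 and 21.7 TPM against 28, 26.1 and 49.2 TPM in w embryos (log2 fold change −0.62, standard error 0.24, adjusted p = 0.0914), both without overlap, and both missed the threshold. Among w embryos of this stage the maternal nuf (60.1 ± 18.2 TPM) and slam (34.5 ± 12.8 TPM, SD, n = 3 each) were the most abundant members, and their libraries overlapped. The slam RNA of w embryos was split between its forms there, with 54.0% in FBtr0344864.

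**Figure D5:**
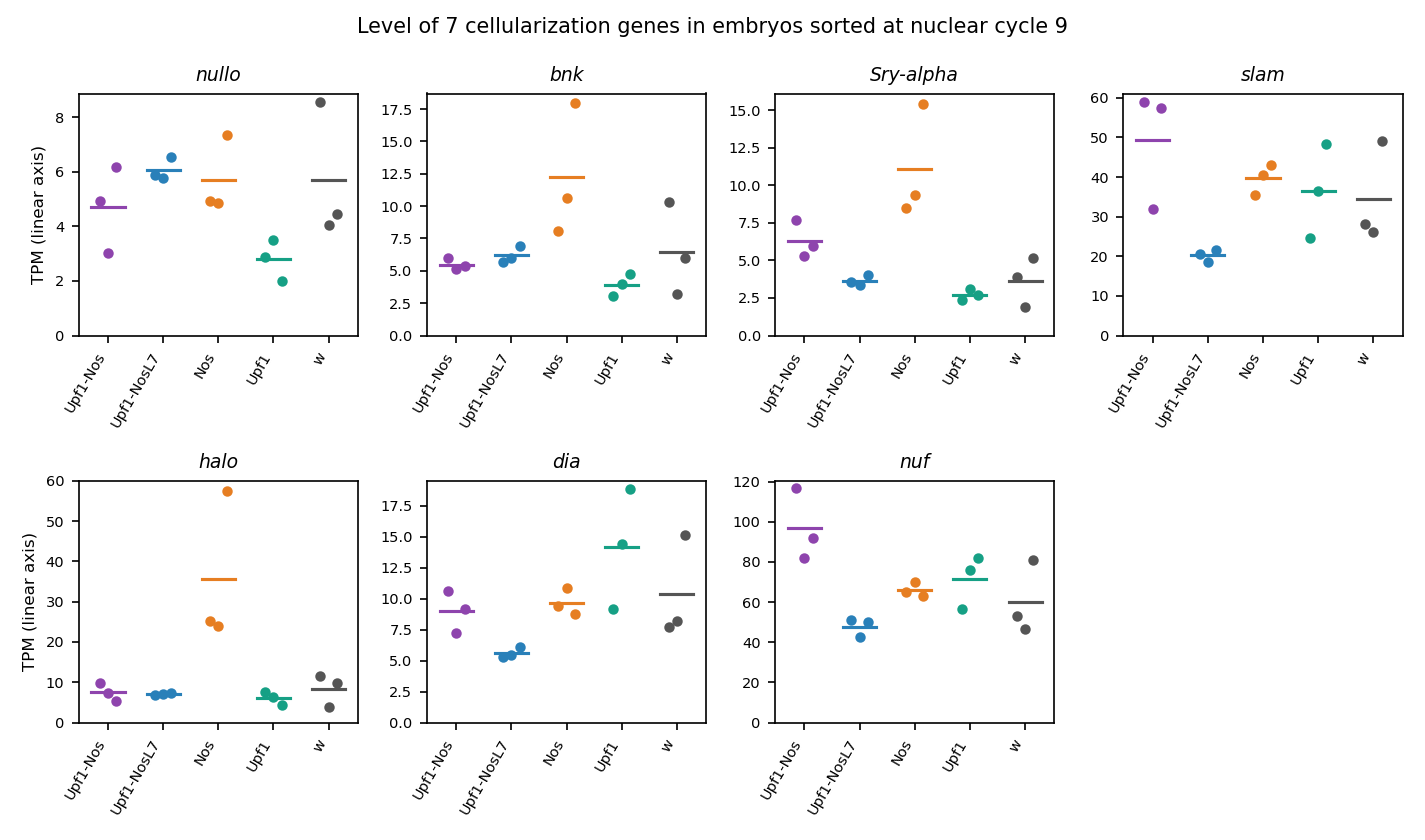
Level of each member in the sorted libraries, in TPM on a linear axis, with 1 point for each library and a bar at the mean of each group (n = 3). The Nos points for halo and Sry-alpha lie above all w points, and the other transgenes overlap with w for these 2 genes except where Upf1-Nos lies above w for Sry-alpha. TPM values are as deposited, without the correction factors that the test used for Upf1-Nos libraries, so Upf1-Nos and w points are not on the same scale.

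Over the 12 unsorted libraries, levels of the zygotic members ran closely in parallel. On log2 CPM (counts scaled by the library total), Pearson's r was 0.999 for Sry-alpha with halo, the highest pair, and 0.936 for nullo with slam, the lowest of the 5. With dia, r for the other members was −0.64 to −0.10. The 3 tested genes most like each member by r were Elba1, Elba3 and dpn for bnk (0.998, 0.997 and 0.997), D, Nrt and tll for Sry-alpha (0.999, 0.998 and 0.998), and scw, CG18269 and CG13000 for nullo (0.995, 0.995 and 0.992). For slam they were hrg, wech and Nin (0.997, 0.995 and 0.995), and for halo bard, SNCF and D (0.999, 0.998 and 0.998). The maternal members had looser likeness, TppII, CG1317 and sima for dia (0.946, 0.935 and 0.925) and CG12877, CG4615 and atl for nuf (0.955, 0.952 and 0.947). These values are descriptions over 12 libraries that fall into 4 groups of 2 ages, and the difference between the ages is common to all of them.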

How the data were processed

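The authors trimmed reads, removed those of mitochondrial, transfer and ribosomal RNA, aligned paired reads of poly(A) libraries with STAR 2.5.3a to BDGP6 and deposited RSEM 1.3.0 expected counts and TPM values for genes and isoforms. Whether counting used strand is not given in the sources used here. Expected counts were rounded and tested with edgeR 4.0.16 (R 4.3.3; glmQLFit in its legacy form, count minimum 30 in filterByExpr, TMM), over all 12 unsorted or all 15 sorted libraries with 1 coefficient per group. In place of TMM the Upf1-Nos libraries took correction factors from 20 genes listed by the study (mean ratio of CPM to the w mean). P-values were adjusted by the Benjamini-Hochberg method over all 8445 unsorted genes, 6857 sorted genes or 15528 isoforms, and each standard error is the log2 fold change over the root of the F statistic. A call needed an adjusted p below 0.05 and a log2 fold change beyond 0.5 (nos- against w) or a change above 2-fold (stage and sorted comparisons). Deposited TPM values were used for levels; no depth-based interval was computed, since groups were replicated. The test was checked on simulated counts. Of the genes given a change there, it called 91.8% for nos- against w at 2-3h and 83.2% at 0-1h. For w with age it called 78.8%, and for Nos against w 99%. Of the isoforms given a change it called 55.9% for nos- against w at 2-3h, so an isoform without a call may still differ. Likeness is Pearson's r of log2 CPM with a prior count of 2.

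The members and the gene lists were chosen with earlier results of these data known. All 7 members are named. From each list of other cellularization genes up to 3 genes called at 2-3h with the largest change are named, and for each member the 3 genes of highest r; genes of the marker lists and isoforms named beyond this were chosen after their values were seen. Of 132 listed symbols 131 were found. The follicle cell list gave no tested gene. Same-numbered nos- and w libraries deviated together from their group means (r = 0.12 to 0.48 at 2-3h and 0.15 to 0.49 at 0-1h, over genes). At 0-1h nos- replicate 1 (r = 0.15) went best with w replicate 2 and not with its own number. The pairing by number used for the block rests on this pattern in the data and not on a label. Alternatives were other scalings, filters, DESeq2 1.42.0, limma 3.58.1 on log2 TPM with a pseudocount of 1 or 0.1 and on voom values, the replicate block, fits on the groups compared alone, and leaving out each library. Promoter and protein sequences were not used here.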

Additional observations from a re-analysis of the deposited data

Results flagged for a closer look

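For 6 of the 7 members the difference between nos- and w embryos changed between the ages. The change itself was tested (edgeR's quasi-likelihood test, adjusted over 8445 genes, n = 3 libraries in each of 4 groups) at adjusted p below 0.05 with no fold threshold. By this test 1635 of the 8445 genes were called negative. With the log2 threshold of 0.5 the change was called for 4 members, halo, Sry-alpha, bnk and slam. Genotype, strain background and the age of embryos within a collection cannot be told apart here. The log2 difference, 2-3h minus 0-1h, was −1.59 for halo (adjusted p = 0.00649), −1.51 for Sry-alpha (adjusted p = 0.00681), −1.38 for bnk (adjusted p = 0.00309) and −0.90 for slam (adjusted p = 0.0108). For the maternal members it was −0.49 for dia (adjusted p = 0.0292) and −0.37 for nuf (adjusted p = 0.0287). The seventh member, nullo, had −0.79 with adjusted p = 0.192, and −1.28 with adjusted p = 0.0253 without the w 0-1h library of replicate 3. The 17 other early zygotic genes had 16 negative calls and 0 positive in the same test with the threshold of 0.5, with a median of −1.63, and the 10 maternal markers 5 positive and 0 negative at that threshold, with a median of 0.72.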

How the results depend on the processing

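Of 1197 values of members under the alternatives, 1154 kept their call or absence of a call, 12 lost a call and 31 gained one, and no called value changed sign. All 5 rises with age in each genotype held under every alternative run. The 1 member higher at 0-1h became 3 with no filter, with DESeq2 and with the replicate block, also within each age, 2 with edgeR's default filter and with no fold threshold, and 0 when only the libraries of that age were fitted; leaving out libraries gave 1 to 3. The pairing by number, the block within each age being an alternative chosen after seeing the data, changed no call beyond these. Over all genes, 1564 were called higher in nos- embryos at 0-1h with no fold threshold, in place of 924. The number was 446 when only the libraries of that age were fitted. Shares of all genes under the other filters, DESeq2 and the block are not given here. The 4 lower at 2-3h were 1 to 4 with a library left out, and bnk fell just short of the fold threshold in limma on TPM (−0.50, adjusted p = 0.0377). With no fold threshold 1 member, dia, was lower with age in nos- embryos and 1, nuf, higher in Upf1-Nos embryos, where TMM in all libraries gave 2. In Upf1 embryos 1 member, nullo, was lower with library totals, upper quartile scaling, no filter or DESeq2, and 0 to 1 with a library left out. Isoform calls at 2-3h were 3 to 6 lower and 1 to 2 higher with a library left out, against 8 and 1. Scaling by library totals moved the median of all genes to 0.12 at 2-3h, −0.04 at 0-1h and 0.09 for w with age, and upper quartile scaling to 0.36 (nos-) and 0.43 (w) with age. Values near 0 changed sign with the setting for slam (−0.07 to 0.08) and dia (−0.02 to 0.12) at 0-1h and nuf at 2-3h (−0.12 to 0.07). Counts over all genes moved by over 1.5 times in places, as for negative calls of the difference between ages (853; 486 with DESeq2 size factors, 386 with library totals). The causes were not tested. Sorted w libraries held only 26 to 81 counts of halo.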
